A study of Homo sapiens with 6 samples.

Results

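Aminoacyl-tRNA synthetases attach each amino acid to its transfer RNA and so supply the charged tRNA that ribosomes use. The members described here are 35 human genes of this enzyme family, chosen by name from a count table of 64299 genes. The rule uses no measured value, although the family was picked with earlier results of these data known. They fall into 19 cytosolic enzymes (symbols ending in 1, with FARSA and FARSB, the subunits of the phenylalanine enzyme) and 16 mitochondrial enzymes (symbols ending in 2). All 35 matched exactly 1 row of the table through their Ensembl identifier, and all 35 were abundant enough to be tested. Both sets are encoded in the nucleus, and the mitochondrial enzymes are imported into the organelle. GARS1 and KARS1 are counted as cytosolic although each also provides the mitochondrial form of its enzyme. Many cytosolic synthetase genes are known targets of ATF4, a transcription factor of the integrated stress response, which is switched on by shortage of amino acids (through the kinase GCN2, which senses uncharged tRNA) and by misfolded protein in the endoplasmic reticulum (ER; through the kinase PERK).

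The 6 libraries are poly(A) RNA sequencing of HEK293T, a transformed human embryonic kidney cell line, transfected with a lipid-based reagent. The 3 ERbeta libraries came from cells given a plasmid labelled ERbeta, and the 3 EV_Ctrl libraries from cells given the empty vector, so both groups were transfected. The labels do not define ERbeta. General knowledge of this work, and not the labels, makes it a designed β-sheet protein sent into the ER, not an estrogen receptor. The labels do not say that replicates were separate cultures, so p-values here reflect only how far these libraries spread, which may be technical.

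Library totals ran from 6833442 reads in EV_Ctrl 1 to 27101644 in EV_Ctrl 2, and members had between 61 and 12523 reads per library. Genes typical of HEK293T were present (8 of 8 tested, among them VIM at 839 to 984 CPM, reads per 1e6 library reads). Among markers of blood, liver and fibroblasts, CD3E, TTR and COL1A2 had 0 reads in every library, and the endothelial marker CDH5 had at most 1. Reads were present for others: COL1A1 was at 13.5 to 31 CPM, COL3A1 at 1.24 to 2.81 CPM and CD14 at 0.963 to 2.21 CPM, and ALB, APOA1, PECAM1 and VWF had at most 10 reads in any library. The part of such cells in the results was not tested. EV_Ctrl 2 stood apart from the other controls. The level of GC-rich relative to GC-poor genes (log2, the most GC-rich genes minus the most GC-poor ones, around the mean of the 6 libraries) was 0.56 in EV_Ctrl 1 and 0.48 in EV_Ctrl 3. It was -0.14 in EV_Ctrl 2, and -0.18, -0.06 and -0.67 in ERbeta 1, 2 and 3, so EV_Ctrl 2 lay within the range of the ERbeta libraries. For the main results below, values with a GC correction or without that library are therefore given as well.

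A short DNA element links many synthetase genes to ATF4, and its copies in the members' promoters are shown here because they mark a subset that is followed through the results. The element, the C/EBP-ATF response element, was searched as TGATGNAA on both strands in RefSeq windows (GRCh38.p14) from 250 bases before to 50 bases after each annotated start. A window was found for 30 of 35 members, and 8 of these held the element, 7 of 16 cytosolic and 1 of 14 mitochondrial genes. Among all tested genes with a window, 314 of 11721 (2.68%) held it. Each line gives the strand of the gene, 5′ to 3′, with the element in capitals. TTGCATCA is TGATGCAA read on the other strand.
TARS1: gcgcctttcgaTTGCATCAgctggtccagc
GARS1: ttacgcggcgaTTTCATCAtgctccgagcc
IARS1: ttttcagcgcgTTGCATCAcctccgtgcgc
CARS1: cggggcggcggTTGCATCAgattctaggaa
MARS1: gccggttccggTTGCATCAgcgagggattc
AARS1: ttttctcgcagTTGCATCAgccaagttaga
NARS1: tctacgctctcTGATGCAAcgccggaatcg
YARS2: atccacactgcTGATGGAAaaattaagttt

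The 7 cytosolic sites lie at chr5:33440956-33440985 (TARS1, plus strand), chr7:30594834-30594863 (GARS1, plus), chr9:92293692-92293721 (IARS1, minus), chr11:3057407-3057436 (CARS1, minus), chr12:57488053-57488082 (MARS1, plus), chr16:70289675-70289704 (AARS1, minus) and chr18:57621804-57621833 (NARS1, minus). In TARS1, IARS1, CARS1, MARS1 and NARS1 the element overlapped or lay within 21 bases of the annotated start, in GARS1 it lay at -33 to -26, and in AARS1 at -187 to -180. The mitochondrial site, in YARS2, lies at chr12:32756076-32756105 (minus strand), -197 to -190 from the start. The 8 letters TGATGCAA, singled out after the sites were seen, were in 6 of 30 members and in 0.734% of tested genes with a window. The ER stress response element, CCAAT and CCACG with 9 bases between them, was in 0 of 30 members and in 0.137% of tested genes. A match to these letters is a description of the window and does not show binding.

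The cytosolic synthetase mRNAs took a larger share of all reads in every ERbeta library than in any EV_Ctrl library, and the mitochondrial synthetase mRNAs a smaller one. The cytosolic share was 0.43%, 0.414% and 0.477% of reads in the ERbeta libraries (replicates 1 to 3 in order, here and below), against 0.395%, 0.399% and 0.384% in the EV_Ctrl libraries. The mitochondrial share was 0.0963%, 0.0974% and 0.0949% in ERbeta and 0.109%, 0.101% and 0.105% in EV_Ctrl. Averaged over genes after normalisation, the cytosolic set was at a mean log2 CPM of 7.70, 7.67 and 7.86 in ERbeta against 7.51, 7.60 and 7.44 in EV_Ctrl. For the mitochondrial set the groups overlapped, at 5.50, 5.51 and 5.49 against 5.51, 5.54 and 5.50. In bulk RNA, a difference in the share of cells holding a transcript and a difference in RNA per cell cannot be told apart.

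**Figure D1:**
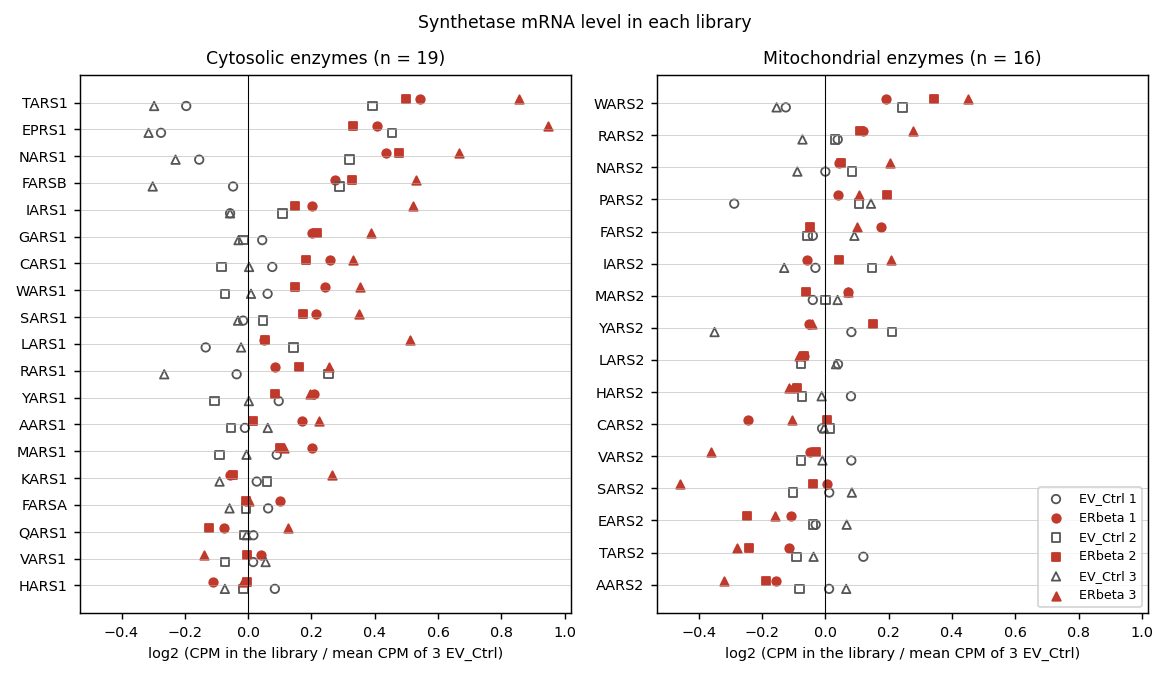
Level of each synthetase mRNA in each library, as log2 of its CPM over the mean CPM of the 3 EV_Ctrl libraries (filled red, ERbeta; open grey, EV_Ctrl; one symbol shape per replicate number). For 8 of 19 cytosolic genes all ERbeta points lie to the right of all EV_Ctrl points, and for TARS1, EPRS1, NARS1 and FARSB the open square, EV_Ctrl 2, lies apart from the other controls.

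Gene by gene, 0 of 35 members passed edgeR's quasi-likelihood test at an adjusted p of 0.05 over all 16243 genes tested, as did 0% of those genes. DESeq2 called 0 members (0.438% of all genes) and limma-voom also 0. At an unadjusted p under 0.05 there were 9 members higher in ERbeta, all of them cytosolic, where 9.54% of all genes were. There were 0 lower, where 2.88% of all genes were. The median log2 fold change was 0.22 for the cytosolic and -0.03 for the mitochondrial genes, against -0.01 over all genes, and 16 of 19 and 8 of 16 were positive, where 48.3% of all genes were. The 3 ERbeta libraries lay above the 3 EV_Ctrl libraries for 8 cytosolic and 1 mitochondrial gene (10.2% of all genes) and below them for 0 cytosolic and 4 mitochondrial genes (8.48%). The cytosolic count of 9 was not steady. It was 3 without ERbeta 1 or ERbeta 3, 2 without EV_Ctrl 1 or EV_Ctrl 3, and 8 without ERbeta 2 or EV_Ctrl 2.

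The largest differences were in TARS1, EPRS1 and NARS1. TARS1, the threonine enzyme (chromosome 5, 33440696 to 33469539, plus strand), was at 467, 453 and 580 CPM in ERbeta 1, 2 and 3 and at 280, 421 and 261 CPM in EV_Ctrl 1, 2 and 3. All ERbeta values exceeded all control values, but EV_Ctrl 2 stood nearer to ERbeta than to the other controls. Its log2 fold change was 0.64 ± 0.20 (SE), with an edgeR adjusted p of 0.397. NARS1, the asparagine enzyme (chromosome 18, 57600656 to 57622213, minus strand), was at 328, 338 and 385 CPM in ERbeta and 218, 303 and 207 CPM in EV_Ctrl. Again the groups did not overlap and EV_Ctrl 2 was the highest control, and the log2 fold change was 0.53 ± 0.16 (edgeR adjusted p 0.397). EPRS1, a fusion of the glutamate and proline enzymes in 1 protein (chromosome 1, 219968601 to 220046658, minus strand), was at 239, 227 and 348 CPM in ERbeta and 149, 247 and 145 CPM in EV_Ctrl. Here EV_Ctrl 2 lay above ERbeta 1 and 2, so the groups overlapped, with a log2 fold change of 0.59 ± 0.25 (edgeR adjusted p 0.397).

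For these 3 genes the edgeR call depended on which control libraries were used. Without EV_Ctrl 2 the log2 fold changes were 0.90 for TARS1, 0.89 for EPRS1 and 0.73 for NARS1, with edgeR adjusted p-values of 0.000869, 0.00452 and 0.00153. With EV_Ctrl 2 as the sole control they were 0.25, 0.14 and 0.21, with an edgeR adjusted p of 1 for each, on the assumption that a single control spreads as the ERbeta libraries do. Over the family, 4 of 35 members passed as higher without EV_Ctrl 2, a share close to the 13.5% of all genes that did so. The fourth was FARSB. In the authors' deposited table, made with DESeq2 on all libraries, TARS1 (adjusted p 0.0431), NARS1 (0.0431) and EPRS1 (0.0491) were the 3 members below 0.05, where 3.78% of the genes given an adjusted p were below it. Their log2 fold changes in that table were 0.50, 0.44 and 0.47. The DESeq2 test run here on the same libraries gave 0.64, 0.52 and 0.59, with DESeq2 adjusted p-values of 0.196, 0.211 and 0.34. The authors' table gave an adjusted p to 11150 genes, and the DESeq2 test here to 16219. The reason for the difference was not tested.

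A second set of cytosolic genes differed less but more evenly across the libraries. GARS1, the glycine enzyme (chromosome 7, 30594681 to 30634033, plus strand), was at 221, 223 and 251 CPM in ERbeta and 198, 190 and 188 CPM in EV_Ctrl, a log2 fold change of 0.27 ± 0.10 (edgeR adjusted p 0.397). The 3 controls lay between 188 and 198 CPM, below every ERbeta library. SARS1, the serine enzyme (chromosome 1, 109213918 to 109238169, plus strand), was at 211, 205 and 232 CPM against 180, 188 and 178 CPM. CARS1, the cysteine enzyme (chromosome 11, 3000922 to 3057613, minus strand), was at 117, 111 and 123 CPM against 103, 92.2 and 97.9 CPM. WARS1, the tryptophan enzyme (chromosome 14, 100333788 to 100376805, minus strand), was at 127, 119 and 137 CPM against 112, 102 and 108 CPM. In each of these the groups did not overlap, and EV_Ctrl 2 was the lowest control for CARS1 and WARS1. The log2 fold changes were 0.25 ± 0.09 for SARS1, 0.26 ± 0.10 for CARS1 and 0.25 ± 0.10 for WARS1, each with an edgeR adjusted p of 0.397. With EV_Ctrl 2 as the sole control they were 0.21, 0.35 and 0.33, and 0.29 for GARS1. Without EV_Ctrl 2 they were 0.28, 0.22 and 0.22, and 0.27 for GARS1. The edgeR adjusted p-values were then 0.157, 0.282 and 0.287, and 0.172 for GARS1, so none of these genes passed there either.

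WARS1 is also known as a gene induced by interferon gamma, so other genes with that property were measured beside it. Of 10 listed, 5 were abundant enough to test, 2 positive and 3 negative, where 48.3% of all genes were positive. Their median was -0.12 on the log2 scale, with 0 passing or at an unadjusted p under 0.05 in edgeR. Over all genes 0% passed, and at that p 9.54% were higher and 2.88% lower. Whether interferon had a part in the WARS1 values was not tested. The smallest p-values were those of IRF1, an interferon-induced transcription factor, at -0.35 ± 0.20, TAP1, a peptide transporter of antigen presentation, at -0.12 ± 0.12, and CXCL10, a chemokine at 0.261 to 1.2 CPM, at 0.33 ± 0.46.

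Per-library values are added for FARSB, IARS1 and MARS1, which were chosen after their values were seen. FARSB was at 103, 107 and 123 CPM in ERbeta and 82.4, 104 and 69.1 CPM in EV_Ctrl, with EV_Ctrl 2 inside the ERbeta range. IARS1, the isoleucine enzyme, was at 504, 485 and 629 CPM against 421, 472 and 421 CPM, without overlap. Their log2 fold changes were 0.38 ± 0.16 and 0.30 ± 0.12. After the GC correction described below they were 0.14 and 0.17, and neither was then at an unadjusted p under 0.05. Lower were LARS1 (0.22, leucine), RARS1 (0.17, arginine), YARS1 (0.16, tyrosine), AARS1 (0.14, alanine) and MARS1 (0.14, methionine). YARS1, AARS1 and MARS1 were, after that correction, at 0.28, 0.24 and 0.24. MARS1 was at 321, 299 and 302 CPM against 297, 262 and 278 CPM, just without overlap. Its exons share 355 bases with those of DDIT3 (CHOP, a stress transcription factor on the opposite strand, at a log2 fold change of 0.80 ± 0.12), and 519 bases with ARHGAP9. Whether the counting used strand is not given in the sources used here, so those reads cannot be told apart between the genes.

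Near 0 were KARS1, FARSA, QARS1, VARS1 and HARS1. KARS1, the lysine enzyme (chromosome 16, 75627474 to 75648643, minus strand), was at 169, 170 and 211 CPM in ERbeta and 179, 183 and 165 CPM in EV_Ctrl, a log2 fold change of 0.06 ± 0.12 with ERbeta 3 alone above the controls. HARS1, the histidine enzyme and the lowest cytosolic gene by fold change (chromosome 5, 140673904 to 140691862, minus strand), was at 118, 127 and 126 CPM against 135, 126 and 121 CPM, or -0.05 ± 0.10, and the groups overlapped. FARSA was at 0.03 ± 0.09, QARS1 (glutamine) at -0.02 ± 0.10 and VARS1 (valine) at -0.03 ± 0.10. The subunits of the phenylalanine enzyme, FARSA and FARSB, thus had values of 0.03 and 0.38, and after GC correction of 0.17 and 0.14.

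Fold change and GC content moved together over the members. Pearson's r between log2 fold change and the GC content of the longest transcript was -0.63 over all 35 genes, -0.61 over the 19 cytosolic and -0.78 over the 16 mitochondrial genes (Spearman's rho -0.62, -0.60 and -0.75); all points share the same 6 libraries. After a correction for GC content, in which a smooth curve of level on GC is removed from each library, r was -0.08, 0.06 and -0.13. The correction left the cytosolic median at 0.24 and the mitochondrial median at -0.01, and again 16 of 19 cytosolic genes were positive. At an unadjusted p under 0.05 there were 9 cytosolic genes higher, where 5.67% of all genes were, and 0 mitochondrial genes. These were not the same 9 as without the correction. MARS1, which shares exon bases with DDIT3, and YARS1 took the place of FARSB and IARS1. TARS1 was then at 0.52, EPRS1 at 0.45, NARS1 at 0.44, CARS1 at 0.34, WARS1 at 0.34, SARS1 at 0.32 and GARS1 at 0.31, with edgeR adjusted p-values of 0.428 to 0.467. LARS1 and RARS1 turned negative, at -0.05 and -0.09, and VARS1 and QARS1 turned positive, at 0.14 and 0.09. With the correction and without EV_Ctrl 2, TARS1, NARS1 and EPRS1 passed, 3 of 35 members, where 6.41% of all genes passed as higher.

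**Figure D2:**
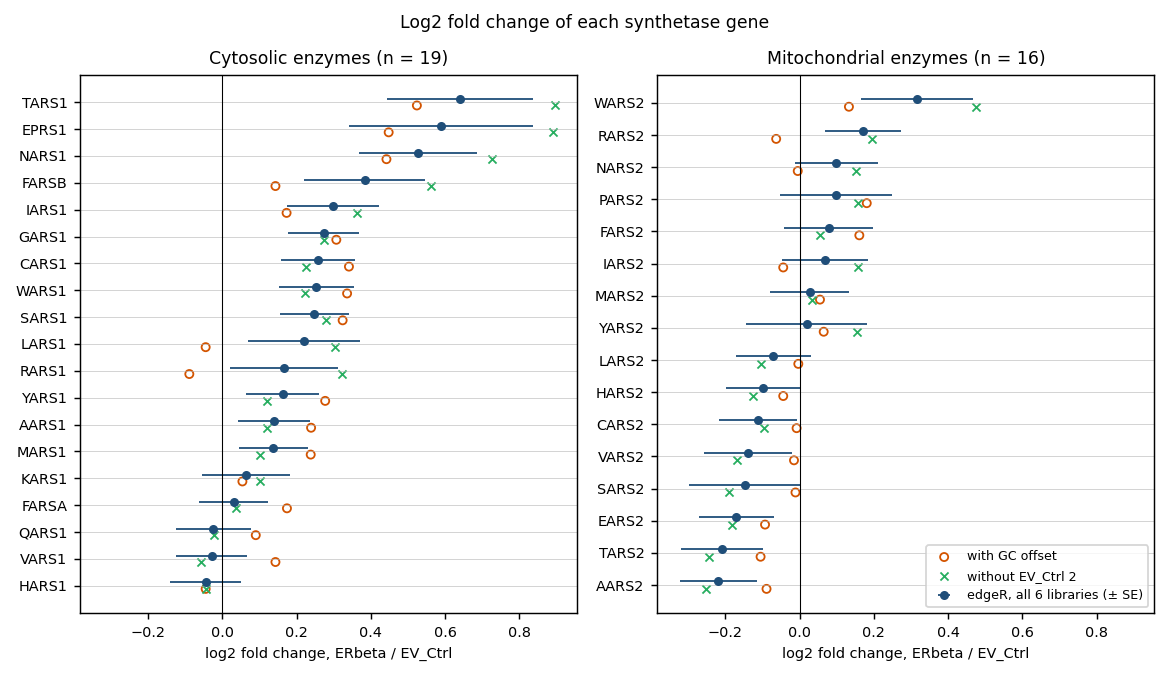
Log2 fold change of ERbeta over EV_Ctrl for each gene with all libraries (filled blue, ± SE from edgeR), with the GC correction (open orange) and without EV_Ctrl 2 (green cross). TARS1, EPRS1 and NARS1 lie at 0.53 to 0.64 with all libraries and at 0.73 to 0.90 without EV_Ctrl 2, while GARS1, CARS1, WARS1 and SARS1 lie at 0.22 to 0.34 in all 3 settings.

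The mitochondrial enzymes, which charge the tRNAs used to make the proteins encoded in mitochondrial DNA, were split evenly around 0. WARS2, the tryptophan enzyme (chromosome 1, 119031216 to 119140671, minus strand), was the highest by fold change, at 18.8, 20.9 and 22.5 CPM in ERbeta and 15.1, 19.5 and 14.8 CPM in EV_Ctrl. EV_Ctrl 2 lay inside the ERbeta range, and the log2 fold change of 0.32 ± 0.15 (edgeR adjusted p 0.407) became 0.13 after GC correction. RARS2, the arginine enzyme (chromosome 6, 87514378 to 87590003, minus strand), was at 89.6, 89 and 100 CPM against 84.8, 84.3 and 78.5 CPM. It was the mitochondrial gene with all ERbeta libraries above all controls, at 0.17 ± 0.10, but it was at -0.06 after GC correction.

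The 4 mitochondrial genes with every ERbeta library below every control were AARS2, TARS2, EARS2 and HARS2. AARS2, the alanine enzyme (chromosome 6, 44299654 to 44313326, minus strand), was at 76.8, 75.2 and 68.5 CPM in ERbeta and 86.3, 80.9 and 89.6 CPM in EV_Ctrl, a log2 fold change of -0.22 ± 0.10 (edgeR adjusted p 0.402) and the lowest of the family. TARS2, the threonine enzyme (chromosome 1, 150487364 to 150507609, plus strand), was at 56.8, 52.0 and 50.6 CPM against 66.8, 57.7 and 59.9 CPM, or -0.21 ± 0.11. EARS2, the glutamate enzyme (chromosome 16, 23522014 to 23557731, minus strand), was at 63.4, 57.6 and 61.2 CPM against 66.9, 66.5 and 71.6 CPM, or -0.17 ± 0.10. HARS2, the histidine enzyme (chromosome 5, 140691426 to 140699318, plus strand), was at 54.0, 54.3 and 53.4 CPM against 61.1, 54.9 and 57.3 CPM, or -0.10 ± 0.10. After GC correction these 4 were at -0.09, -0.11, -0.09 and -0.04, and none was at an unadjusted p under 0.05 in either form.

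Besides WARS2, 10 mitochondrial genes had overlapping groups. Of these, NARS2 and PARS2 (each 0.10), FARS2 (0.08), IARS2 (0.07), MARS2 (0.03) and YARS2 (0.02) were positive. LARS2 (-0.07), CARS2 (-0.11), VARS2 (-0.14) and SARS2 (-0.15) were negative. After that correction VARS2 was at -0.015 and SARS2 at -0.011. PARS2, the proline enzyme, was the lowest member in reads, with 61 in EV_Ctrl 1. SARS2 shares 46.2% and VARS2 22% of its annotated exon length with another gene on the same strand, so their counts are uncertain. In all, 19 members share exon bases with another gene.

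Set beside the mitochondrial enzyme for the same amino acid, the cytosolic enzyme usually had the larger log2 fold change. This held for 14 of 17 pairings over 16 amino acids, with a median difference of 0.29, and for 13 of 17 after GC correction, with a median of 0.21. For threonine, TARS1 was at 0.64 and TARS2 at -0.21. The log2 ratio of TARS1 to TARS2 was 3.04, 3.12 and 3.51 in ERbeta and 2.07, 2.86 and 2.12 in EV_Ctrl, without overlap. For cysteine the ratio of CARS1 to CARS2 was 0.98, 0.65 and 0.91 against 0.57, 0.38 and 0.48. For serine the ratio of SARS1 to SARS2 was 3.42, 3.43 and 4.02 against 3.19, 3.36 and 3.09. The log2 ratio was higher in every ERbeta than in every EV_Ctrl library for 7 pairings (the others being alanine, glutamate, isoleucine and asparagine) and lower for 0. Of single genes, 10.2% were higher and 8.48% lower without overlap, but no share was computed for ratios of other gene pairs. These ratios carry no GC correction, and the pairings that share EPRS1 or FARS2 are not separate.

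Tryptophan, arginine and FARSA with FARS2 were the 3 pairings in which the mitochondrial gene had the larger value. The cytosolic minus mitochondrial differences were -0.06, -0.005 and -0.05, each smaller in size than the standard error of either gene. With the GC correction they were 0.20, -0.03 and 0.01, so tryptophan and FARSA with FARS2 turned. The negative pairings were then arginine, leucine (-0.04), FARSB with FARS2 (-0.02) and histidine (-0.0013). HARS1 and HARS2 differed by 0.05. They are read in opposite directions from RefSeq starts at 140691370 and 140691455 on chromosome 5, with 84 bases (59.5% GC) between them. In the GENCODE 29 annotation their exons share 437 bases.

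**Figure D3:**
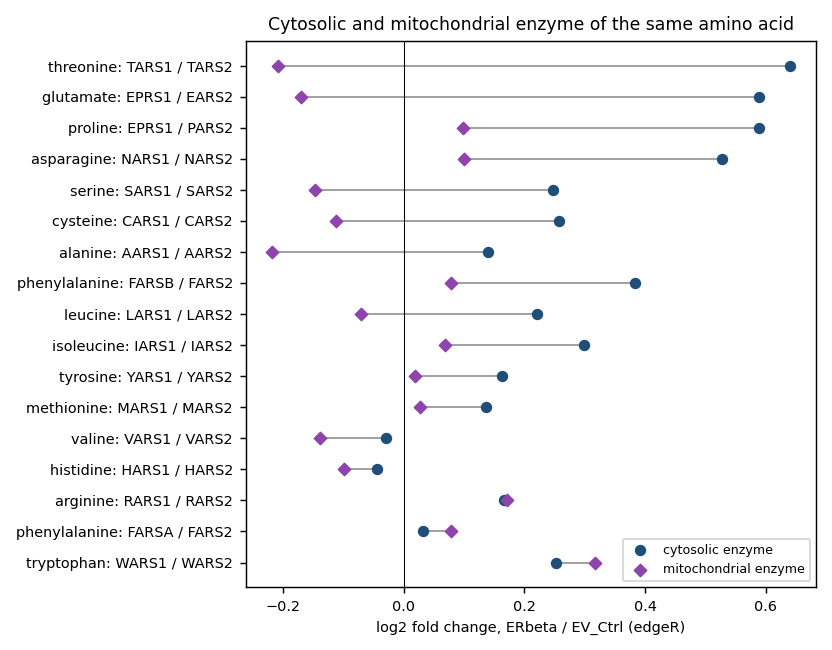
Log2 fold change of ERbeta over EV_Ctrl for the cytosolic (blue circle) and mitochondrial (purple diamond) enzyme of each amino acid, ordered by the difference between them. The blue circle lies to the right in 14 of 17 pairings, with the widest gap for threonine.

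The cytosolic genes were also described by groupings that the choice of members did not use. Of the 19, 13 are widely listed as ATF4 targets. Their median log2 fold change was 0.25, 12 of 13 were positive, 8 of 13 were at an unadjusted p under 0.05 and the groups did not overlap for 8. Over all genes 48.3% were positive, 9.54% were higher at an unadjusted p under 0.05 and 10.2% were higher without overlap. Of the 6 not so listed (FARSA, FARSB, HARS1, KARS1, QARS1 and RARS1), 4 were positive with a median of 0.05, 1 was at an unadjusted p under 0.05 and the groups overlapped for all. After GC correction the medians were 0.31 and 0.07. The mean log2 CPM of the 13 was 7.98, 7.92 and 8.14 in ERbeta and 7.70, 7.81 and 7.67 in EV_Ctrl. The mean of the 6 was 7.11, 7.12 and 7.26 against 7.09, 7.16 and 6.94, with overlap. The response element was in 7 of the 10 listed genes with a window and in 0 of the 6 others. The 7 genes with the element had a median of 0.27 (range 0.14 to 0.64) and the 9 cytosolic genes with a window and no match had a median of 0.17 (range -0.05 to 0.59). Over all tested genes the corresponding medians were 0.06 for the 314 with the element and -0.01 for the 11407 without it, and 0.02 and -0.01 after GC correction.

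Among the cytosolic enzymes, 7 are bound together in the multisynthetase complex, a particle in which several synthetases are held by scaffold proteins. These 7 (EPRS1, IARS1, KARS1, LARS1, MARS1, QARS1 and RARS1) had a median log2 fold change of 0.17, and the 12 outside it 0.25. After GC correction the medians were 0.09 and 0.29. Synthetases also divide into structural classes with unrelated catalytic folds. Of the cytosolic genes, 9 of class I had a median of 0.17 and 9 of class II 0.25, and EPRS1, which joins both classes, is left out of this split. For the mitochondrial genes the class medians were 0.02 (9 genes) and -0.10 (7 genes). After GC correction the class I and class II medians were 0.17 and 0.24 for the cytosolic genes. For the mitochondrial genes they were then -0.008 and -0.011. No test was made of these differences between groupings.

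The scaffolds of that complex were AIMP1, at 55.9, 59.3 and 64.7 CPM in ERbeta and 30.8, 55.8 and 21.4 CPM in EV_Ctrl, EEF1E1, at 34.6, 35.8 and 33.7 CPM against 22.3, 29.8 and 15.1 CPM, and AIMP2. The groups did not overlap for AIMP1 and EEF1E1, but EV_Ctrl 2 stood far above the other controls. Their log2 fold changes were 0.72 ± 0.31 and 0.62 ± 0.23, and -0.12 ± 0.16 for AIMP2, none passing. After GC correction AIMP1 was at 0.20 and EEF1E1 at 0.11. Without EV_Ctrl 2 they were at 1.22 and 0.92, and 2 of the 3 scaffolds passed as higher, where 13.5% of all genes did. With the GC correction and without EV_Ctrl 2, 0 of the 3 scaffolds passed.

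Other steps around tRNA charging had list medians between -0.02 and 0.07. For the enzymes that convert or modify amino acids already on tRNA (amidation, formylation and selenocysteine synthesis) 0 of 6 passed in either direction and the median was 0.07. Their smallest p-values were those of PSTK, the selenocysteine kinase, at 0.27 ± 0.16, SEPSECS, at 0.34 ± 0.24, and QRSL1, an amidotransferase subunit, at 0.09 ± 0.13. With the GC correction these were 0.13, -0.15 and -0.24 and the list's median was -0.05. Without EV_Ctrl 2, 1 of the 6 passed as higher, where 13.5% of all genes did, and with the GC correction as well 0 did. For the factors that clear mischarged tRNA (DTD1, DTD2 and AARSD1) 0 of 3 passed and values ran from -0.11 to 0.02. With the GC correction DTD2 was at -0.55. With it and without EV_Ctrl 2, 1 of the 3 passed as lower, where 624 of all 16104 genes did. For the factors of tRNA export and delivery 0 of 6 tested passed. XPOT, which exports tRNA from the nucleus, was at 0.30 ± 0.13 (-0.01 after GC correction), the mitochondrial elongation factor gene TSFM at -0.15 ± 0.15 and EEF1B2 at 0.08 ± 0.13. In the branch that senses uncharged tRNA 0 of 3 passed, with EIF2AK4 (GCN2) at -0.06 ± 0.15, its partner GCN1 at 0.02 ± 0.10 and its inhibitor IMPACT at 0.41 ± 0.18, which was -0.06 after GC correction. Without EV_Ctrl 2, 1 of these 3 passed as higher, where 13.5% of all genes did, and with the GC correction as well 0 did.

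ATF4-linked genes that are not synthetases were measured for comparison. Of 26, 0 passed in edgeR over all genes, 21 were positive, 10 were higher at an unadjusted p under 0.05 and 0 lower, and the median log2 fold change was 0.20, against 0.25 for the 13 ATF4-linked synthetases. Over all genes 48.3% were positive and 9.54% were higher at that p. With the GC correction 24 were positive, 14 were higher and 1 lower at that p, 1 passed, and the median was 0.30. Over all genes with that correction, 7633 of 16091 were positive, 913 (5.67%) were higher and 782 lower at that p, and 9 passed. Without EV_Ctrl 2, 3 of the 26 passed as higher, where 13.5% of all genes did. With the GC correction as well, 4 passed as higher, where 6.41% of all genes did. DESeq2 called DDIT3 (adjusted p 8.52e-05) and SLC7A11 (adjusted p 0.0078), where it called 0.438% of all genes. The mean log2 CPM of the 26 genes was 6.08, 6.02 and 5.98 in ERbeta and 5.81, 5.77 and 5.78 in EV_Ctrl, where EV_Ctrl 2 lay with the other controls. Leading by p-value were DDIT3, the cystine transporter gene SLC7A11 at 1.04 ± 0.22 (0.43 after GC correction) and the amino acid transporter chain gene SLC3A2 at 0.51 ± 0.12. The element was in 5 of the 18 with a promoter window.

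Levels can be compared between genes only per length of transcript, and are given as CPM per kilobase of annotated exon (the union over transcripts, which understates genes with long rare exons such as CARS1). In EV_Ctrl the cytosolic genes ran from 9.75 ± 0.56 (SD, n = 3) for CARS1 to 59.4 ± 12.8 for NARS1, with a median of 39.7. The mitochondrial genes ran from 3.57 ± 0.20 for FARS2 to 55.7 ± 5.48 for IARS2, with a median of 11.8. Neighbours at the top of this order (NARS1, IARS1 at 59.2 ± 3.98, FARSA at 58.3 ± 2.50, TARS1 at 56.1 ± 15.3 and IARS2) did not differ beyond their spread. IARS2 stood with the cytosolic genes, above the next mitochondrial gene, RARS2, at 32.4 ± 1.39. IARS1 was 1.16 times as high as IARS2, HARS1 1.07 times as high as HARS2 and RARS1 0.951 times as high as RARS2 over all 6 libraries, whereas FARSA was 16.1 times as high as FARS2. These ratios depend on the annotated lengths. The lengths were 7401 and 4165 bases for IARS1 and IARS2, and 7853 and 3736 for HARS1 and HARS2. For RARS1 and RARS2 they were 3421 and 2545, and for FARSA and FARS2 2435 and 4835.

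**Figure D4:**
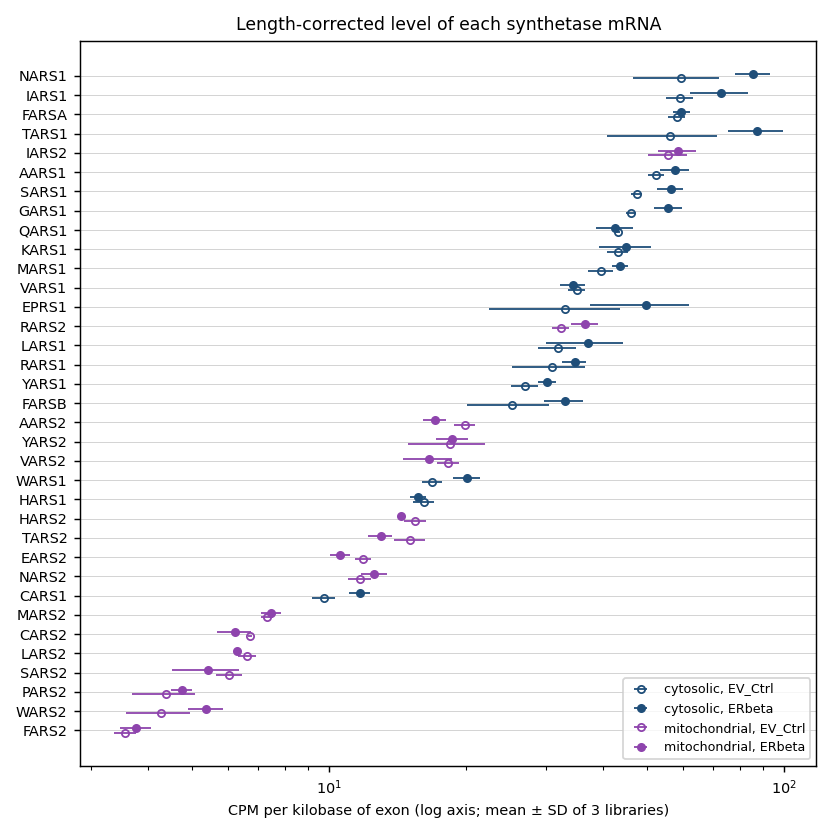
Level of each synthetase mRNA in CPM per kilobase of exon on a log axis, as mean ± SD of 3 libraries (open, EV_Ctrl; filled, ERbeta; blue, cytosolic; purple, mitochondrial), ordered by EV_Ctrl. IARS2 and RARS2 lie among the cytosolic genes, and CARS1, HARS1 and WARS1 lie among the mitochondrial ones. The order depends on the annotated exon lengths.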

How the data were processed

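Per the submitters' processing notes, the tools were TopHat2, featureCounts and DESeq2, on build hg38. Their versions and the annotation were not given in the sources used here. The authors deposited raw read counts per gene and library. Their second table holds, per the file headers, a mean normalised signal, a log2 fold change, 2 columns without a fixed range taken as scores (its error and test statistic) and p-values; it is only quoted.

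The low-count filter of edgeR (filterByExpr, minimum count 10, total 15) kept 16243 genes, with 99.8% or more of the reads in any library. These were scaled by TMM and tested by quasi-likelihood (edgeR 4.0.16, R 4.3.3), group being the sole term, and p-values were Benjamini-Hochberg adjusted over all genes. The SE is the log2 fold change divided by the square root of F. CPM are TMM-scaled. Libraries of a group differed beyond counting noise (chi-square per degree of freedom 4.74 to 38.7). This does not show that they were separate cultures, and each library was counted once. For the GC correction, a loess fit (span 0.5) of level against the GC content of the longest GENCODE 29 transcript, known for 99.1% of tested genes, became an offset. Alternatives used DESeq2 1.42.0 and limma 3.58.1 (voom). Gene positions and exon lengths are from GENCODE 29 (GRCh38), promoter windows from RefSeq. The fitting steps were also run on simulated counts with the same spread for all genes. Those counts held no GC trend and no library that stood apart, so these features of the data were not covered. No columns lay outside the 6 libraries.

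Values in every library are given for the 5 members with the smallest p-values in each subgroup, the highest and lowest of each by fold change, and WARS1, GARS1, KARS1, HARS1, HARS2 and EPRS1. From each other list up to 3 genes with the smallest p-values are named, most with fold changes only. The members and lists were chosen with earlier results of these data known. Lists are described by counts and medians, with no set test.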

Additional observations from a re-analysis of the deposited data

How the results depend on the processing

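Each of the 35 members kept its sign and its side of the threshold with DESeq2 size factors, without the low-count filter, with the DESeq2 test, with limma-voom and with the replicate block. The cytosolic median stayed between 0.15 and 0.29 under every alternative, and no alternative called a member lower. The replicate numbers share no stated source, and the deviations of same-numbered libraries correlated at 0.23, -0.14 and -0.15. With the replicate block the cytosolic median was 0.21, 0 members passed and 3 cytosolic genes, not 9, had an unadjusted p under 0.05. With EV_Ctrl 2 as sole control that number was 0, and it ran from 2 to 8 when 1 library was left out.

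Over all genes, those passing as higher numbered 51 without the filter, 70 with DESeq2, 1 with limma-voom, 9 with the GC correction, 1033 with it and without EV_Ctrl 2, and 0 to 2198 with 1 library left out, the highest without EV_Ctrl 2. Those lower numbered 1 with DESeq2, 624 with the GC correction and without EV_Ctrl 2, and 0 to 126 with 1 library left out. Members passing as higher were 3 with the GC correction and without EV_Ctrl 2, and 0 to 4 with 1 library left out. The mitochondrial median, -0.03, was -0.009 with the GC correction, with or without EV_Ctrl 2, and -0.077 to -0.011 with 1 library left out. Positive mitochondrial genes were 5, not 8, with the GC correction, alone or with the replicate block. At most 1 (0 to 1) had an unadjusted p under 0.05 as higher with 1 library left out. The cause of these shifts was not tested.

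Some genes changed sign, among them LARS1, RARS1 and RARS2, which were at 0.22, 0.17 and 0.17 with all libraries. With the GC correction, with it and the replicate block, and with it and without EV_Ctrl 2, the values were -0.045, -0.050 and -0.078 for LARS1, 0.090, 0.078 and 0.123 for QARS1, -0.089, -0.085 and -0.061 for RARS1, and 0.143, 0.140 and 0.153 for VARS1. They were -0.044, -0.043 and -0.009 for IARS2, -0.0049, -0.0046 and -0.0002 for NARS2, and -0.063, -0.060 and -0.139 for RARS2. CARS2 was at 0.040 in the last of these settings. With EV_Ctrl 2 as sole control RARS1 was at -0.084, VARS1 at 0.046, IARS2 at -0.074, LARS2 at 0.009 and YARS2 at -0.187. With 1 library left out the ranges that crossed 0 were -0.016 to 0.064 for FARSA, -0.048 to 0.122 for KARS1, -0.101 to 0.032 for QARS1, -0.078 to 0.022 for VARS1, -0.005 to 0.157 for IARS2, -0.0047 to 0.077 for MARS2, -0.009 to 0.164 for PARS2 and -0.131 to 0.155 for YARS2. Depth limits the least abundant members, PARS2 with 61 reads in EV_Ctrl 1 among them.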
